A study of Mus musculus with 13 samples.

Results

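The genes described here encode the receptor complex that takes up filtered protein at the apical membrane of the kidney proximal tubule, together with its direct partners. They were chosen by symbol from the deposited gene table, 8 genes of 35013 symbols, and all 8 were among the 16468 genes with enough counts to be tested. The members are Lrp2 (megalin), Cubn (cubilin), Amn (amnionless), Lrpap1 (the receptor-associated protein), Dab2, Gipc1, Clcn5 and Fcgrt. The 13 libraries came from kidneys of female mice that all carried the tamoxifen-inducible driver Megalin3'Cre-Ert and a Cre-activated Uprt allele (Uprt flox/+), and all received tamoxifen. In Spns1 KO mice (n = 4) Spns1 was flox/flox. For WT mice (n = 5) and FeO mice (n = 4) the sample labels give Spns1 WT, whereas the methods give Spns1 flox/+, so that those animals would also have lost an Spns1 copy in the tubule. FeO mice were given 12 mg of iron as iron sucrose by injection on each of 3 days and were killed 1 week later, and the other groups received no iron. The labels call this model dietary but also describe injection, which is the route the methods give. Age is not given in the sources used here. UPRT, the product of Uprt, allows a cell to build 4-thiouracil into newly made RNA, and the tagged RNA was pulled out of total kidney RNA on streptavidin beads before sequencing. By design a library therefore holds captured, recently made RNA rather than the whole RNA of a tubule cell, but how much untagged RNA was carried along was not measured.

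Megalin is a giant endocytic receptor that binds many filtered proteins and carries them into clathrin-coated pits. Cubilin has no membrane-spanning part and reaches the apical surface only with amnionless, which anchors it, and megalin helps to internalize the cubilin-amnionless pair. The receptor-associated protein escorts megalin through the endoplasmic reticulum. Dab2 binds short tail motifs of such receptors and connects them to clathrin, and the protein of Gipc1 is a scaffold that binds the tail end of megalin and links endosomes to myosin VI. ClC-5, made by Clcn5, exchanges chloride for protons in endosomes and is lost in Dent disease, and FcRn, made by Fcgrt, returns albumin and immunoglobulin G from endosomes to the cell surface.

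Lrp2 is both a member of this set and the locus of the driver. On GRCm38 the gene lies on chromosome 2 from 69424340 to 69586065, minus strand, and its transcript of 15460 bases encodes 4660 codons. The adaptors bind the cytoplasmic tail, which is encoded at the 3' end, and in every group the driver was built by replacing the stop codon of an Lrp2 allele with a P2A peptide and Cre-Ert2. Stretches of that end are shown, read 5' to 3' along the coding strand, because they carry the adaptor motifs and the place where the driver was joined. Capitals mark an NPXY motif (codons 4524 to 4527, in chr2:69430281-69430340) and a second NPXY motif (codons 4603 to 4606, in chr2:69425786-69426012). They also mark the PPPSP motif that GSK3 kinases phosphorylate (codons 4621 to 4625, in chr2:69425729-69425791) and the stop codon that the driver replaces (in chr2:69425645-69425671). The chromosome positions are those of the whole printed stretches, and an intron splits the stretch around the second NPXY motif.
first NPXY motif: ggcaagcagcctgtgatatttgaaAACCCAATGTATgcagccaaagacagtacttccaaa
second NPXY motif: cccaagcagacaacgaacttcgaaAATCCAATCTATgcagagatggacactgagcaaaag
PPPSP motif: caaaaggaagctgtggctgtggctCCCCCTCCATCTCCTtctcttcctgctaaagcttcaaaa
stop codon: cttgtgaaggaagactctgatgtaTAG
A deposited count covers the whole gene, so reads of the driver allele and of an unmodified allele cannot be told apart.

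Total counts ranged from 31809135 to 71296474 per library in Spns1 KO, from 23068023 to 37362311 in WT and from 25986133 to 29981814 in FeO. The targeted gene, Spns1, spanned 36.6 to 59.0 CPM (counts scaled to library size) in Spns1 KO, 39.2 to 62.9 in WT and 39.0 to 58.7 in FeO. These ranges overlapped, and the count includes exons that the deletion leaves in place, so it does not check the labels. All 12 proximal tubule markers examined were present, but Slc7a13 was near the floor, at 0.077 to 2.45 CPM in WT with a lowest count of 2. The summed level of the 12 was 3241 to 4788 CPM in WT, 6962 to 8837 in Spns1 KO and 2281 to 5930 in FeO, the lowest being FeO 1. Markers of other kidney cells were present as well, and whether their RNA was tagged or carried along untagged was not tested. The summed level of 4 loop and distal tubule markers was 1648 to 3854 CPM in WT, 2923 to 3964 in Spns1 KO and 1717 to 4610 in FeO. The summed level of 5 collecting duct markers was 281 to 482 CPM in WT, 238 to 347 in Spns1 KO and 414 to 1262 in FeO, and that of 5 macrophage markers was 47.1 to 59.8, 64.5 to 103 and 82.4 to 155 CPM in the same order. No marker of these lists was at 0 in every library. In such bulk RNA, fewer cells of a type and less RNA per cell cannot be told apart.

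In Spns1 KO against WT, the receptor genes and most of their partners were higher. Of the 8 members, 6 were called higher (Lrp2, Cubn, Amn, Dab2, Lrpap1 and Fcgrt), where 14.0% of all genes tested were, with a median log2 fold change over the 8 of 0.88 against -0.045 over all genes. Calls rested on edgeR's quasi-likelihood fit and required a Benjamini-Hochberg adjusted p under 0.05 together with a log2 change of more than 0.5 up or down. By edgeR, 0 members were called lower, where 7.55% of all genes were. DESeq2 and limma-voom also called 0 lower, and 0 were lower at an unadjusted p under 0.05. The 6 higher members were the receptors with their anchor, the chaperone, an adaptor and the recycling receptor, while Clcn5 and Gipc1 passed in neither direction. With library totals as the only scaling, 1739 genes in all were called higher and 2086 lower in place of 2307 and 1243, the median of all genes moved by -0.13, and 5 members were called higher, without Dab2.

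In FeO against WT, neither receptor nor the anchor was called, and a single member was. Gipc1 was called higher, 1 of 8 members where 22.4% of all genes were called higher. No member was called lower by edgeR, 0 of 8 where 19.7% of all genes were, with 1 (Clcn5) lower at an unadjusted p under 0.05. DESeq2 called 1 lower, Clcn5, and limma-voom 0. The median log2 fold change over the 8 members was 0.084, against -0.011 over all genes.

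Set directly against FeO, Spns1 KO was called higher for 4 members (Lrp2, Cubn, Amn and Lrpap1), where 6.76% of all genes were, and lower for 1 (Gipc1), where 8.10% were. This comparison tests the difference between the 2 models, which share their WT libraries. Its median log2 fold change over the 8 members was 0.81, against 0.028 over all genes.

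**Figure D1:**
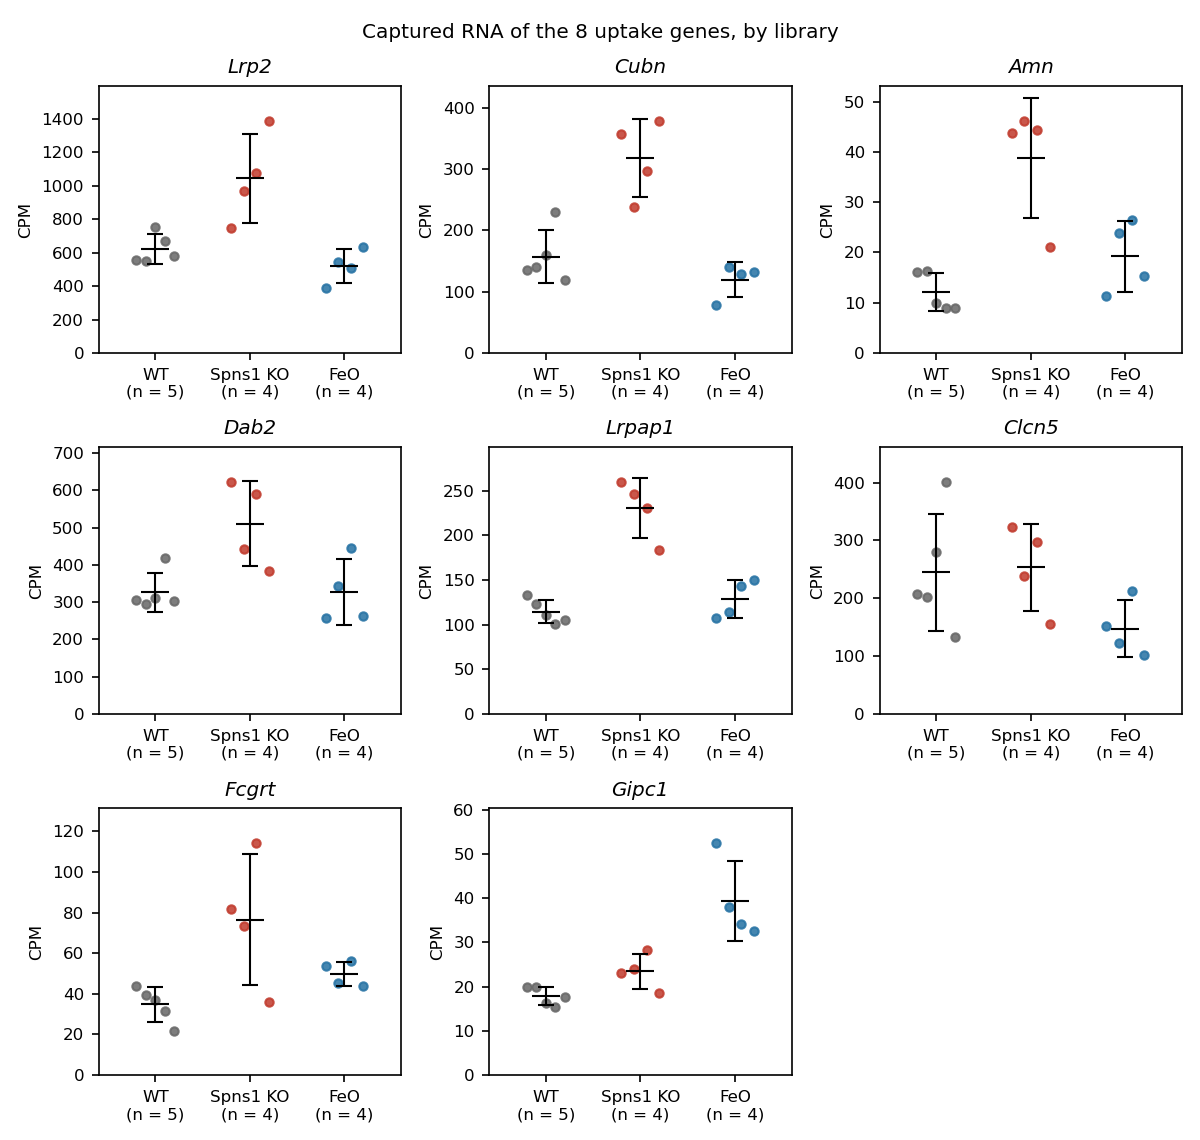
Level of each of the 8 genes in CPM (vertical axes, starting at 0) in WT, Spns1 KO and FeO; each point is 1 library, and the bars give the mean ± SD. All 4 Spns1 KO libraries lie above all WT libraries for Cubn, Amn and Lrpap1, and all 4 FeO libraries lie above all WT libraries for Fcgrt and Gipc1.

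Lrp2 had the highest count of the set, 11863 to 58807 per library. Its level was 747, 967, 1076 and 1387 CPM in Spns1 KO 1 to 4. WT 1 to 5 gave 554, 548, 755, 669 and 578 CPM, and FeO 1 to 4 gave 389, 544, 510.0 and 632. Spns1 KO 4 was the highest of all libraries and FeO 1 the lowest, and Spns1 KO overlapped WT only in that Spns1 KO 1 lay just under WT 3. The mean was 1044 ± 267 CPM in Spns1 KO (SD, n = 4) and 621 ± 89.2 CPM in WT (SD, n = 5), and the fitted change was 1.68-fold, or 0.75 on the log2 scale (SE 0.20, edgeR adjusted p = 0.0165). The call was kept in all 13 fits that each left out 1 library, where the log2 fold change lay between 0.58 (without Spns1 KO 4) and 0.88 (without Spns1 KO 1). FeO averaged 519 ± 101 CPM (SD, n = 4), with a log2 fold change of -0.26 against WT that did not pass (SE 0.21, edgeR adjusted p = 0.312). Every Spns1 KO library lay above every FeO library, a difference of 1.01 on the log2 scale (SE 0.22, edgeR adjusted p = 0.00921).

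Cubn (chromosome 2, 13276338 to 13491813, minus strand) was measured at 357, 237, 297 and 379 CPM in Spns1 KO 1 to 4. WT 1 to 5 gave 136, 141, 159, 229.9 and 119 CPM, and FeO 1 to 4 gave 77.5, 139.6, 129 and 132 CPM. The Spns1 KO libraries lay above all others, although WT 4 came close to the lowest of them, and FeO 1 lay well under the other FeO libraries. Cubn was 2.02-fold higher in Spns1 KO than in WT, 1.02 on the log2 scale (SE 0.22, edgeR adjusted p = 0.00519), and 1.41 higher than in FeO (SE 0.24, edgeR adjusted p = 0.00369). Without FeO 1 the difference from FeO was 1.25, and the call was kept. Between FeO and WT the log2 fold change of -0.39 did not pass (SE 0.22, edgeR adjusted p = 0.164). Where Cubn shares sequence with Gm13270, a noncoding gene on the opposite strand of the same region, reads could not be separated without strand information. Of the 31-base words of Cubn, 2.11% occur in other genes, mainly Gm13270.

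Amn, which encodes the anchor of cubilin, had a larger log2 fold change in Spns1 KO against WT than Lrp2 or Cubn, but not than Cubn once a length and GC trend was removed (1.26 against 1.46), and its difference between Spns1 KO and FeO was smaller than that of Cubn. The gene lies on chromosome 12 from 111271095 to 111276426, plus strand. It stood at 43.8, 46.2, 44.4 and 21.02 CPM in Spns1 KO 1 to 4. For WT 1 to 5 the levels were 16.2, 16.3, 10.02, 9.04 and 8.96 CPM, and for FeO 1 to 4 they were 11.4, 23.8, 26.5 and 15.3. Spns1 KO 4 lay far under the other Spns1 KO libraries but still above all of WT, whereas the FeO libraries spread from within the WT range to above Spns1 KO 4. The change in Spns1 KO against WT was 3.21-fold, 1.68 on the log2 scale (SE 0.29, edgeR adjusted p = 0.00132), and it stayed between 1.59 and 1.89 with each library left out. The log2 fold change in FeO was 0.67 (SE 0.29, edgeR adjusted p = 0.072) and passed in 2 of the 13 fits without 1 library, at 0.87 without FeO 1 (edgeR adjusted p = 0.0289) and at 0.67 without Spns1 KO 4 (edgeR adjusted p = 0.0411). With the length and GC trend removed it was 0.42 (edgeR adjusted p = 0.264). Amn was 1.01 higher on the log2 scale in Spns1 KO than in FeO (SE 0.31, edgeR adjusted p = 0.0389). That call was lost without Spns1 KO 1, 2 or 3 or FeO 1 or 4, the lowest value being 0.83 (without FeO 1), and in the fit of only these 2 groups (edgeR adjusted p = 0.0723).

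Lrp2, Cubn and Amn were each called higher in Spns1 KO against WT, although Spns1 KO 4 was highest for Lrp2 and Cubn and lowest of its group for Amn. The promoters of these 3 genes are shown, from 250 bases before to 50 bases after the start site (RefSeq, GRCm38.p6). The windows are chr2:69585980-69586279 (minus strand) for Lrp2, chr2:13491827-13492126 (minus strand) for Cubn and chr12:111270846-111271145 (plus strand) for Amn, each read 5' to 3' in the direction of transcription.
Lrp2 promoter: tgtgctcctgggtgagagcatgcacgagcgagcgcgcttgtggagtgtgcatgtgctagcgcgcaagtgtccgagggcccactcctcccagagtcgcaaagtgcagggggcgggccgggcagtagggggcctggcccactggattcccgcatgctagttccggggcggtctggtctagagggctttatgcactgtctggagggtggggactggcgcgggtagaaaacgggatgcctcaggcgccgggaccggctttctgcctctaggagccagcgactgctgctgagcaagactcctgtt
Cubn promoter: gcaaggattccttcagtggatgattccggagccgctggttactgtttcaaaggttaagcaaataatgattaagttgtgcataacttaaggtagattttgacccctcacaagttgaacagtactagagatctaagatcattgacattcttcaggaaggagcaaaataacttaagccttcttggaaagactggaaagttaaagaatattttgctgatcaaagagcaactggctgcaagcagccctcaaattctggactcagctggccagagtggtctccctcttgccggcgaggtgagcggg
Amn promoter: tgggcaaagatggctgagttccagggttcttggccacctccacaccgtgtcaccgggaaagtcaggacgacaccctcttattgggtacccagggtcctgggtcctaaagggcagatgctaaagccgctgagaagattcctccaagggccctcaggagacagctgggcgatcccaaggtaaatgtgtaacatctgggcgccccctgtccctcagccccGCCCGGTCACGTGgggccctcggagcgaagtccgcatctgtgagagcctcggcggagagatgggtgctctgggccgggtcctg
Capitals mark matches to the 4 motifs searched on both strands, the E-box core CACGTG, the HNF1 half-site GTTAAT, the antioxidant response core TGACNNNGC and the TATA box TATAAA. The Amn window held the E-box core with its first base at position -26 from the start site and, overlapping it on the opposite strand, the antioxidant response core at -33. The other 2 windows held none of these letters. Of 32851 mouse promoters of the same length, 7.15% held the E-box core, 12.4% the antioxidant response core, 7.1% the HNF1 half-site and 13.6% the TATA box. Promoter sequence was found for 7 of the 8 members, all but Gipc1.

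Lrpap1, the chaperone of megalin, had the smallest adjusted p of the set in Spns1 KO against WT. Located on chromosome 5 from 35091501 to 35105766, minus strand, it was measured at 259.8, 247, 231 and 183 CPM in Spns1 KO 1 to 4. WT 1 to 5 gave 133, 123, 111, 101 and 105 CPM, and FeO 1 to 4 gave 107, 114, 143 and 149.99. No Spns1 KO library overlapped WT or FeO, whereas the WT and FeO ranges overlapped. The mean of 230.0 ± 33.5 CPM in Spns1 KO (SD, n = 4) against 115 ± 13.1 in WT (SD, n = 5) was a 2.01-fold change, 1.00 on the log2 scale (SE 0.16, edgeR adjusted p = 0.000736). Against FeO it was 0.84 higher (SE 0.17, edgeR adjusted p = 0.00657). FeO differed from WT by 0.17 on the log2 scale, which did not pass (SE 0.16, edgeR adjusted p = 0.4).

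Dab2 and Gipc1 encode the proteins that bind receptor tails. Dab2 (chromosome 15, 6299788 to 6440712, plus strand) was measured at 623, 443, 589 and 385 CPM in Spns1 KO 1 to 4. The WT libraries held 304, 295, 310.5, 417 and 303 CPM, and the FeO libraries 256, 344, 444 and 262. WT 4 stood above its group and above Spns1 KO 4, so the groups overlapped. Dab2 was 1.56-fold higher in Spns1 KO than in WT, 0.64 on the log2 scale (SE 0.21, edgeR adjusted p = 0.0343). This was the least stable of the 6 calls, lost in 7 of the 13 fits without 1 library (Spns1 KO 1, 2 or 3, or WT 1, 2, 3 or 5), with a log2 fold change between 0.54 and 0.76 over all 13. In FeO its log2 fold change against WT was 0.0023 (SE 0.21, edgeR adjusted p = 0.993). The difference between Spns1 KO and FeO, 0.64, did not pass (SE 0.22, edgeR adjusted p = 0.058) but did in 3 of the 13 fits, at 0.83 without FeO 3, 0.76 without Spns1 KO 4 and 0.64 without WT 4. The antisense gene Gm16311 and the pseudogene Gm18888 lie within Dab2, and 2.42% of its 31-base words occur in other genes.

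Gipc1 (chromosome 8, 83652677 to 83664694, plus strand) was the member that rose in FeO. It was measured at 52.5, 38.1, 34.3 and 32.5 CPM in FeO 1 to 4. WT 1 to 5 gave 19.8, 19.996, 16.3, 15.4 and 17.8 CPM, and Spns1 KO 1 to 4 gave 23.03, 23.9, 28.3 and 18.5. Every FeO library lay above every library of the other groups, FeO 1 highest. The change in FeO against WT was 2.20-fold, 1.14 on the log2 scale (SE 0.17, edgeR adjusted p = 0.000444), and it lay between 0.99 and 1.25 with each library left out. In Spns1 KO the log2 fold change of 0.39 did not pass (SE 0.17, edgeR adjusted p = 0.107). Spns1 KO was lower than FeO by 0.75 on the log2 scale (SE 0.18, edgeR adjusted p = 0.0142), a call kept in all 13 fits without 1 library, with the smallest difference, -0.58, without FeO 1, but lost in the fit of only these 2 groups (-0.76, edgeR adjusted p = 0.0505).

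Fcgrt and Clcn5 encode the endosomal members. Fcgrt (chromosome 7, 45092990 to 45103851, minus strand) was measured at 82.0, 73.5, 114 and 35.8 CPM in Spns1 KO 1 to 4. WT 1 to 5 gave 43.9, 39.5, 37.1, 31.7 and 21.7 CPM, and FeO 1 to 4 gave 53.5, 45.5, 56.2 and 44.1. Spns1 KO 4 lay within the WT range and the other Spns1 KO libraries above it, while all FeO libraries lay just above all WT libraries. Fcgrt was 2.20-fold higher in Spns1 KO than in WT, 1.14 on the log2 scale (SE 0.26, edgeR adjusted p = 0.00705), and the call was kept in all 13 fits without 1 library, between 0.88 and 1.37. In FeO the log2 fold change of 0.52 did not pass (SE 0.26, edgeR adjusted p = 0.116), except at 0.52 without Spns1 KO 4 (edgeR adjusted p = 0.0367). The difference between Spns1 KO and FeO, 0.62, did not pass (SE 0.28, edgeR adjusted p = 0.134), except at 0.85 without Spns1 KO 4 (edgeR adjusted p = 0.0251). The antisense gene Gm45669 overlaps Fcgrt, and 1.88% of its 31-base words occur in other genes.

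Clcn5 (chromosome X, 7153810 to 7319358, minus strand) spread widely within every group. The Spns1 KO libraries held 324, 238, 297 and 155 CPM, the WT libraries 208, 202, 279.6, 401 and 133, and the FeO libraries 153, 123, 213.5 and 102. WT alone covered nearly the whole range, from WT 5 to WT 4, and all groups overlapped. The log2 fold change was 0.050 in Spns1 KO (SE 0.30, edgeR adjusted p = 0.917) and -0.73 in FeO (SE 0.31, edgeR adjusted p = 0.0637). The decrease in FeO passed in 3 of the 13 fits without 1 library, at -0.96 without FeO 3 (edgeR adjusted p = 0.0333) and also without Spns1 KO 4 or WT 5, and it moved to -0.46 without WT 4 (edgeR adjusted p = 0.191). With the length and GC trend removed, Clcn5 stood at -0.034 in FeO (edgeR adjusted p = 0.935) and at 0.51 in Spns1 KO (edgeR adjusted p = 0.218). With an SE of 0.30 in Spns1 KO against WT, a change of the size seen for Dab2 could have been missed.

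**Figure D2:**
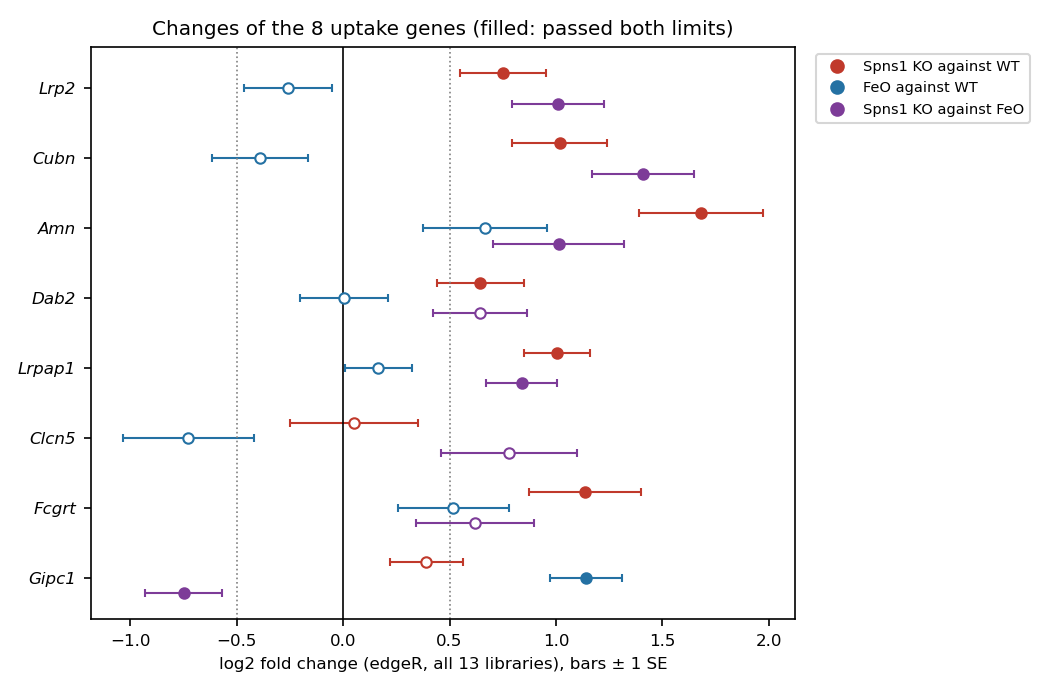
Log2 fold change of each gene (horizontal axis) in the 3 comparisons, with bars of ± 1 SE from edgeR's fit of all 13 libraries; filled points passed both the adjusted p and the fold change limit, and dotted lines mark the fold change limit of 0.5. Lrp2, Cubn, Amn, Dab2, Lrpap1 and Fcgrt are filled for Spns1 KO against WT, and Gipc1 is filled for FeO against WT.

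The length of a transcript moved with the change of its gene in both models, and the members cover a wide span of lengths. For genes with transcripts under 1 kb the median change against WT was 0.61 on the log2 scale in Spns1 KO and 0.80 in FeO. For genes over 8 kb the medians were -0.42 and -0.73. Lrp2 (15460 bases), Cubn (11262) and Clcn5 (8390) are among the longest, and Amn (1701), Fcgrt (1770) and Gipc1 (1522) are short. In Spns1 KO, Lrp2 and Cubn thus rose where 1.81% of the 885 genes over 8 kb were called higher and 20.6% lower, and Amn and Fcgrt rose where 26.7% of the 3218 genes of 1 to 2 kb were called higher. In FeO, where 58.4% of the genes over 8 kb were called lower and 43.3% of those of 1 to 2 kb higher, none of the 3 long members was called and Gipc1 was. The gap between the medians of long and short genes, relative to WT, was -1.38 to -0.55 on the log2 scale in the Spns1 KO libraries, -1.72 to -1.10 in FeO and -0.39 to 0.56 in WT, and Spns1 KO 4 lay nearest to WT among the Spns1 KO libraries.

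After a length and GC trend had been fitted and subtracted in each library, the 6 calls in Spns1 KO were kept, at a log2 fold change of 1.19 for Lrp2, 1.46 for Cubn, 1.26 for Amn, 0.87 for Dab2, 1.00 for Lrpap1 and 0.81 for Fcgrt. The Gipc1 change in FeO was kept as a call, and its change in Spns1 KO turned to -0.062. Lrp2 in FeO turned from -0.26 to 0.53 and was then called higher (edgeR adjusted p = 0.0298), and Cubn turned to 0.38 (edgeR adjusted p = 0.0768). The direction of the 2 long receptors in FeO therefore depended on this correction, while their rise in Spns1 KO did not. Between Spns1 KO and FeO, Lrp2 (0.66), Cubn (1.09), Lrpap1 (0.86) and Gipc1 (-0.82) kept their calls, and Amn lost its call at 0.84 (edgeR adjusted p = 0.0729).

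**Figure D3:**
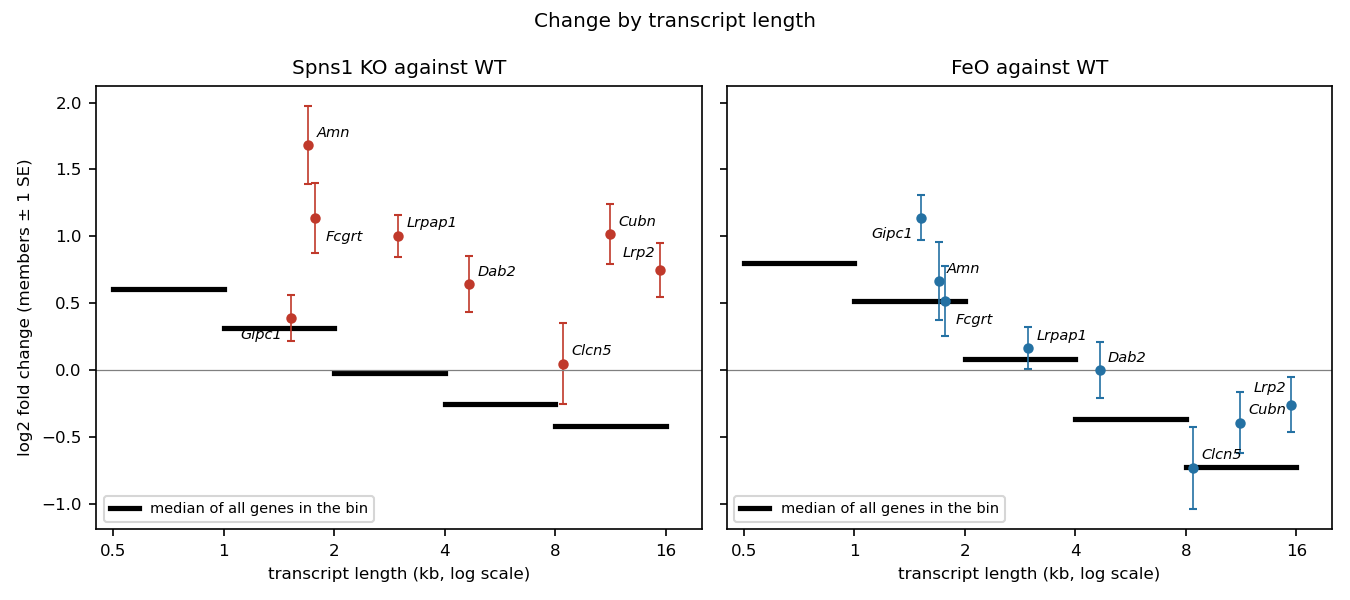
Log2 fold change (vertical axis) against transcript length in kb (log scale) for Spns1 KO against WT, left, and FeO against WT, right; points are the 8 genes with ± 1 SE, and black lines give the median of all genes in 5 length bins, of which the outer 2 are open-ended. All 8 genes lie above the line of their bin in Spns1 KO, Gipc1 by the least, and in FeO Lrpap1, Fcgrt and Clcn5 lie close to it and Gipc1 farthest above.

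The rise of the receptor genes in Spns1 KO went along with a rise of other proximal tubule genes. Of the 12 proximal tubule markers, 7 were called higher and 0 lower by edgeR in Spns1 KO against WT, with a median log2 fold change of 0.88, the same to this precision as over the members. At an unadjusted p under 0.05, 9 markers were higher and 0 lower, and DESeq2 and limma-voom also called 0 lower. In FeO, 2 markers were called higher and 1 lower, with a median of 0.28. FeO 1 stood apart here, at a summed marker level of 2281 CPM where FeO 2 to 4 spanned 3796 to 5930, and it also held the lowest Lrp2 and Cubn levels. Some markers of other cell types were also called higher in Spns1 KO, where 14.0% of all genes were: 2 of 4 podocyte, 2 of 4 loop and distal tubule, 2 of 5 collecting duct, 2 of 4 fibroblast, 1 of 4 endothelium, 1 of 4 lymphocyte and plasma cell and 0 of 5 macrophage markers. The median log2 fold change of the loop and distal tubule markers, 1.02, was above that of the proximal tubule markers, so the rise was not shown to be particular to the proximal tubule. The collecting duct markers had a median of 0.28, while their summed level was 238 to 347 CPM against 281 to 482 in WT. Of the macrophage markers 4 were higher at an unadjusted p under 0.05 and DESeq2 called 1 and limma-voom 0. In FeO, 22.4% of all genes were called higher and 19.7% lower. There 4 of 5 macrophage, 4 of 5 collecting duct, 2 of 4 podocyte, 1 of 4 lymphocyte and plasma cell and 1 of 4 endothelium markers were called higher. Another endothelium marker, Kdr, was called lower, at -0.65 (SE 0.19, edgeR adjusted p = 0.0123). Called higher were 0 of 4 fibroblast and 0 of 4 loop and distal tubule markers, with 0 also at an unadjusted p under 0.05, by DESeq2 and by limma-voom.

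Scaled to the geometric mean of the 12 proximal tubule markers instead of the whole library, a choice made after the data were seen, 0 of the 8 members were called higher in Spns1 KO. Of all 16468 genes, 76 were called higher and 9655 lower under this scaling, so few genes of any kind were called higher. The log2 fold change was then -0.28 for Lrp2, -0.018 for Cubn, 0.65 for Amn, -0.45 for Dab2, -0.060 for Lrpap1 and 0.077 for Fcgrt. Clcn5 was called lower, at -1.02 (edgeR adjusted p = 0.0271). Under this scaling the median of all genes moved by -1.06, so every gene is read relative to the markers. The geometric mean gives each marker the same weight, including Slc7a13, which spanned 0.077 to 2.45 CPM within WT. How far the values under this scaling depend on that marker was not tested. Relative to these markers, the receptors were not shown to differ between Spns1 KO and WT, and whether the rise of the markers has a part in the rise of the receptors was not tested.

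**Figure D4:**
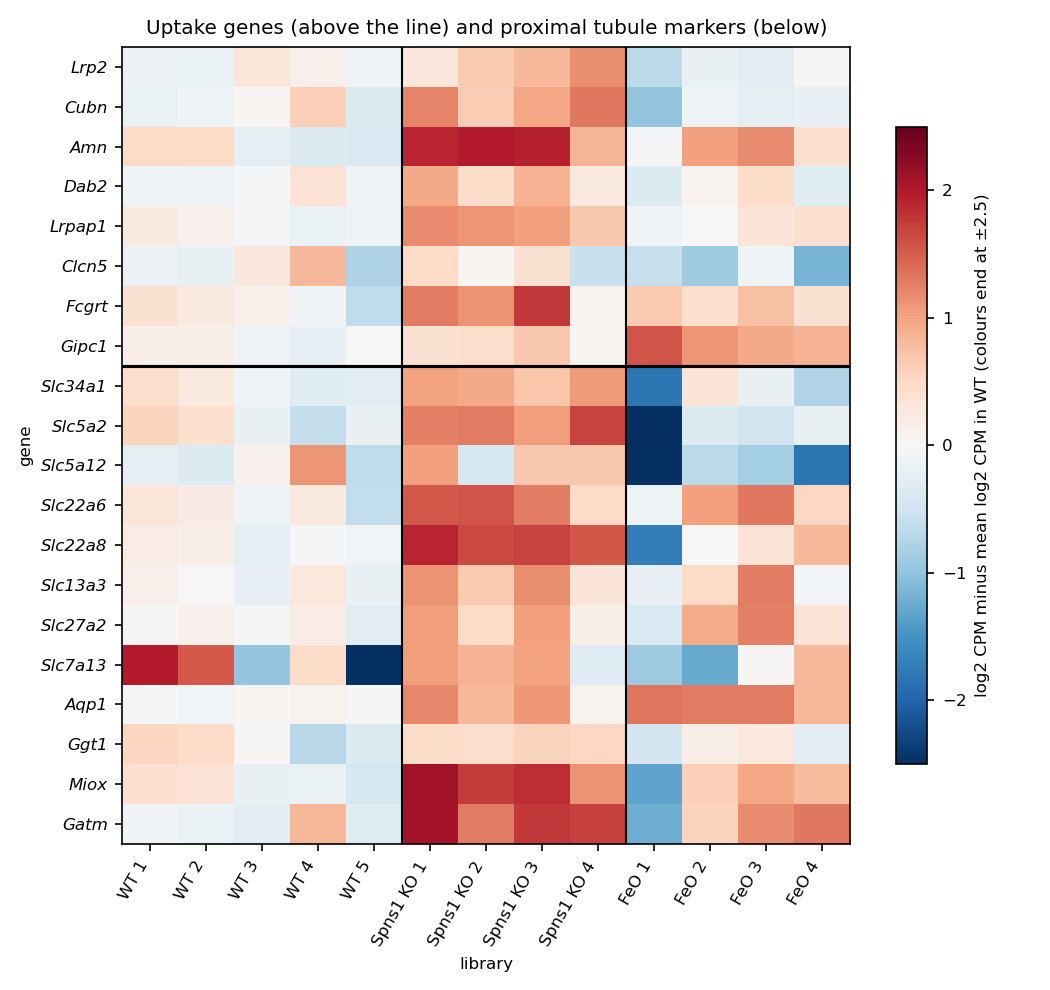
Log2 CPM of each gene in each library minus its mean in WT (colour, red higher and blue lower), for the 8 uptake genes above the black line and 12 proximal tubule markers below it, with the libraries ordered by group. Most markers are red in the Spns1 KO libraries together with Lrp2, Cubn, Amn and Lrpap1, and FeO 1 is blue for Lrp2, Cubn and several markers.

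**Figure D5:**
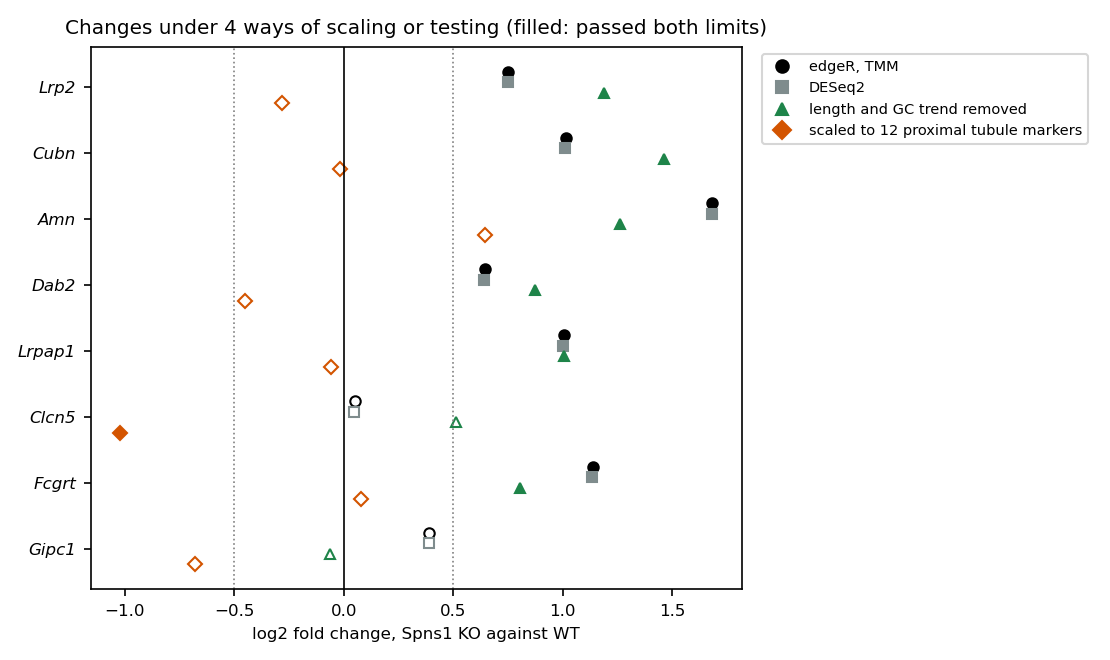
Log2 fold change of each gene in Spns1 KO against WT (horizontal axis) by edgeR with TMM scaling, by DESeq2, with the length and GC trend removed, and scaled to 12 proximal tubule markers; filled symbols passed both limits. The first 3 settings keep the same 6 genes filled. Under marker scaling none of the 8 genes is filled on the higher side, where 76 of all 16468 genes were called higher.

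Compared per length, the adaptor Dab2 was the most abundant member in WT, at 69.9 ± 11.01 CPM per kb (SD, n = 5), above every other member in every WT library. Lrp2 followed at 40.2 ± 5.77, Lrpap1 at 38.5 ± 4.41 and Clcn5 at 29.2 ± 12.1 CPM per kb, and neighbours in this order overlapped. Fcgrt stood at 19.6 ± 4.81, Cubn at 13.9 ± 3.84 and Gipc1 at 11.7 ± 1.35 CPM per kb, again with overlap between neighbours. Amn, at 7.11 ± 2.23 CPM per kb, was the lowest and lay under Gipc1 in every WT library. The partner of cubilin was thus below cubilin itself in captured RNA per length in WT. In Spns1 KO the first 3 places were held by the same genes, with Dab2 at 109 ± 24.5, Lrpap1 at 77.2 ± 11.3 and Lrp2 at 67.5 ± 17.2 CPM per kb (SD, n = 4), and these neighbours overlapped. In FeO, Dab2 at 70.0 ± 18.9 CPM per kb stayed above all others, Gipc1 at 25.9 ± 5.97 stood in the fifth place, and Cubn, at 10.6 ± 2.52, in the eighth (SD, n = 4). All neighbours below Dab2 overlapped in FeO. The length and GC trend was not removed from these levels, so places are not compared between groups. Among 16187 genes of known length, Dab2 ranked 434 and Lrp2 1071 by mean WT level per kb, and Amn ranked 7230.

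Ratios within a library ask whether partners moved in step. The mean log2 ratio of Cubn to Lrp2 (CPM, not per length) was -1.71 ± 0.43 for the 4 Spns1 KO libraries, -2.01 ± 0.30 for the 5 of WT and -2.13 ± 0.19 for the 4 of FeO (± SD). The difference between Spns1 KO and WT, 0.31, was within the spread (exact two-sided permutation test, p = 0.246, adjusted over 9 tests p = 0.443). The ratio of Amn to Cubn was -3.07 ± 0.78 in Spns1 KO, -3.71 ± 0.66 in WT and -2.68 ± 0.35 in FeO. It was 1.03 higher in FeO than in WT, with an exact permutation p = 0.0397 that became 0.257 after adjustment over the 9 tests, and this difference became -0.017 after correction for the length and GC trend. The ratio of Lrpap1 to Lrp2 was -2.16 ± 0.58 in Spns1 KO, -2.43 ± 0.32 in WT and -2.005 ± 0.20 in FeO, and its largest difference, 0.43 between FeO and WT, gave an exact permutation p = 0.0714 (adjusted p = 0.257). None of the 9 ratio tests passed after adjustment, where 0.00794 is the smallest p that 4 against 5 libraries allow and 0.0286 the smallest for 4 against 4. No ratio could have passed this adjustment on its own, even at the smallest p, so these tests say nothing on whether the partners moved in step.

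The genes with profiles most like that of Lrp2 over the 13 libraries, by the root mean square difference of centred log2 CPM, were Gimap8 (0.21), Mccc1 (0.23), Bmp7 (0.25), Phyhd1 (0.26) and AC149090.1 (0.26). Those closest to Cubn were Xpnpep2 (0.24), Vmn1r20 (0.24), Abcc6 (0.26), Slc35f1 (0.26) and Sema4g (0.28). Bmp7 encodes a secreted growth factor, Mccc1 a subunit of a mitochondrial enzyme of leucine breakdown, and Xpnpep2 a brush border peptidase. Among 16467 other genes, Cubn ranked 77 in likeness to Lrp2 (0.33), Lrpap1 330 (0.39) and Dab2 637 (0.42), whereas Amn ranked 10990 (0.74) and Gipc1 13380 (0.84). Lrp2 ranked 22 in likeness to Cubn, Dab2 114 and Lrpap1 196, while Amn ranked 4577. The libraries share their depth and their length trend across genes, so these ranks are a description. Measured this way, the long receptors ran closer to each other than Cubn did to its own anchor.

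The wider uptake machinery was read from lists of 86 genes, of which 84 had enough counts. In Spns1 KO 21 of the 84 were called higher and 3 lower, and in FeO 28 were called higher and 8 lower, beside the shares of all genes given above. The median log2 fold change over the 84 was 0.24 in Spns1 KO and 0.28 in FeO. Leaving out Spns1 KO 1 moved the 21 to 13, and leaving out Spns1 KO 4 moved it to 32.

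Receptors of the family of megalin held calls in both directions. Of 14 such receptors and their chaperones and regulators, 2 (14.3%) were called higher and 1 (7.14%) lower in Spns1 KO, shares near the 14.0% and 7.55% of all genes. In FeO 2 were called higher and 2 lower, where 22.4% and 19.7% of all genes were, and DESeq2 and limma-voom each called 4 lower. Lrp6, a Wnt co-receptor, fell by 0.72 in FeO (SE 0.21, edgeR adjusted p = 0.0123), with all FeO libraries below all WT libraries, and its transcript of 9368 bases is in the bin over 8 kb whose median there was -0.73. Mesd, a chaperone of this receptor family, rose by 0.84 in FeO (SE 0.18, edgeR adjusted p = 0.00199) and stood at 0.23 in Spns1 KO, which did not pass. Lrp12, a smaller relative of megalin, was 10.97 to 19.6 CPM in Spns1 KO against 22.04 to 25.1 in WT, a log2 fold change of -0.66 (SE 0.17, edgeR adjusted p = 0.0112). In FeO all libraries lay below WT as well, at -0.35, which did not pass (SE 0.17, edgeR adjusted p = 0.0933).

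Of 17 tail adaptors and scaffold partners, 3 (17.6%) were called higher and 1 (5.88%) lower in Spns1 KO. The shares of all genes there were 14.0% and 7.55%. In FeO 6 (35.3%) were called higher and 4 (23.5%) lower, where 22.4% and 19.7% of all genes were. The differences from all genes were not tested. Gipc2, a relative of Gipc1, rose in both models, by 0.92 in Spns1 KO (SE 0.21, edgeR adjusted p = 0.00702) and by 0.87 in FeO (SE 0.21, edgeR adjusted p = 0.00464), and in both every library lay above every WT library. Nedd4l, a ubiquitin ligase, stood at -1.02 in Spns1 KO and -0.90 in FeO on the log2 scale, called lower in both (SE 0.27 and 0.26, edgeR adjusted p = 0.0135 and 0.0128). Spns1 KO 4 and FeO 2 lay within its WT range of 326 to 480.5 CPM, and the other libraries of both models lay under it. Gipc3, at under 2 CPM in every library, was called higher in Spns1 KO, at 1.62 on the log2 scale (SE 0.48, edgeR adjusted p = 0.025).

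Of 23 coat and recycling genes, 7 (30.4%) were called higher and 1 lower in Spns1 KO, where 14.0% of all genes were called higher, and 10 (43.5%) higher and 1 lower in FeO, where 22.4% were. The difference from all genes was not tested. Ap2s1, the small subunit of the clathrin adaptor AP-2, rose by 0.75 and 1.38 on the log2 scale (SE 0.16 and 0.16, edgeR adjusted p = 0.00476 and 0.000313). Clta, a clathrin light chain, rose by 0.85 and 1.13 (SE 0.20 and 0.20, edgeR adjusted p = 0.00711 and 0.000717). Rab4a, a small GTPase of rapid recycling, rose by 0.59 and 1.32 (SE 0.18 and 0.18, edgeR adjusted p = 0.029 and 0.000393). These transcripts of 836, 1710 and 1419 bases are in the lengths whose genes were most often called higher, whereas the heavy chain gene Cltc (6519 bases), chosen after its values were seen, stood at 0.10 and -0.13 and passed in neither model. The 8 endosomal ion and lipid genes tied to tubular proteinuria, Clcn3, Clcn4, Clcn7, Ostm1, Ocrl, Inpp5b, Ctns and Slc9a3, held 0 calls in either model by edgeR, DESeq2 and limma-voom, with 1 lower in each at an unadjusted p under 0.05.

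Other uptake receptors and the genes of megalin and cubilin ligands complete the picture. Of 8 genes listed as other receptors, 3 (37.5%) were called higher in Spns1 KO and 4 (50%) in FeO, where 14.0% and 22.4% of all genes were. The list includes Lgals3, which encodes a galectin rather than a receptor and was among the 4 in FeO. By edgeR 0 of the 8 were called lower in either model, where 7.55% and 19.7% of all genes were. At an unadjusted p under 0.05, 1 was lower in each. DESeq2 called 1 lower in Spns1 KO and 0 in FeO, and limma-voom 1 in each. Slc22a17, a lipocalin-2 receptor, was 23.7 to 29.6 CPM in Spns1 KO against 7.52 to 10.2 in WT, a rise of 1.51 on the log2 scale (SE 0.26, edgeR adjusted p = 0.00124), and 7.33 to 21.9 CPM in FeO, which did not pass. Lgals3, galectin-3, rose by 2.04 in FeO (SE 0.36, edgeR adjusted p = 0.000767), where 4 of 5 macrophage markers also rose, a link that was not tested, and stood at -0.14 in Spns1 KO. Scarb1, a lipoprotein receptor, was called higher in FeO at 2.45 (SE 0.79, edgeR adjusted p = 0.0205), but its FeO libraries ran from 16.5 to 510.0 CPM and overlapped WT. Of 14 ligand genes, 6 (42.9%) were called higher in each model, where 14.0% of all genes were in Spns1 KO and 22.4% in FeO. In Spns1 KO 0 were called lower (0 also at an unadjusted p under 0.05, by DESeq2 and by limma-voom), where 7.55% of all genes were. In FeO 1 was called lower, where 19.7% of all genes were. The differences of both lists from all genes were not tested. Cst3, cystatin C, rose by 1.27 in Spns1 KO and 1.40 in FeO (SE 0.21 and 0.21, edgeR adjusted p = 0.000997 and 0.000461). B2m, beta-2 microglobulin, rose by 1.29 and 1.13 (SE 0.22 and 0.22, edgeR adjusted p = 0.0011 and 0.0012). Both transcripts are 860 bases long, in the shortest bin. Rbp4, retinol-binding protein, rose by 1.71 and 1.25 (SE 0.48 and 0.48, edgeR adjusted p = 0.0185 and 0.0466) but stayed under 3 CPM in every library.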

How the data were processed

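Tagged, poly-A selected mouse kidney RNA was sequenced as 13 libraries in paired-end reads of 100 bases. The deposited table holds estimated counts by gene symbol and library, not normalized by the authors. Per the labels, kallisto 0.44.0 and GRCm38 were used, whereas the methods describe STAR alignment and HTSeq counting, so how reads were assigned between similar genes is uncertain. Counts were whole numbers as deposited. Groups were taken from the labels, and libraries of a group were taken as separate mice, which the labels number but do not describe further, so p-values measure the spread between libraries. WT 1 and WT 2 were far more alike than any other pair within a group. Their counts differed by a chi-square per gene of 7.89, where the other pairs lay between 37.2 and 292. Whether they come from separate mice cannot be told, and if not, the spread within WT is understated. No fit that used WT left out both. Every row of the table names a gene symbol.

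Genes were kept with edgeR's filterByExpr (R 4.3.3, edgeR 4.0.16) and scaled by TMM. Its quasi-likelihood test was fitted to all 13 libraries together, and p-values were adjusted by Benjamini-Hochberg over all 16468 genes tested. The SE is the log2 fold change divided by the square root of F. Calls needed an adjusted p under 0.05 and a log2 fold change beyond 0.5, the limits of the study, which used DESeq2. Log2 CPM used a prior count of 2. Ratios within libraries were compared by exact two-sided permutation tests adjusted over 9 tests. Transcript lengths and 31-base words came from GENCODE M21 (GRCm38), and 98.3% of genes tested had a length. Promoters came from RefSeq.

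1 gene of the receptor set and 1 of the wider lists are not reported here. The text names every other member, up to 3 called genes of each list with the largest mean change over both models, and the 5 genes nearest Lrp2 and Cubn in profile. Members, gene lists and the choice of tests were made with earlier results of these data known. Alternatives were DESeq2 1.42.0, limma-voom (limma 3.58.1), other scaling factors, no filter, 2-group fits, a replicate block, removal of a length and GC trend (mgcv 1.9.3), no fold change limit and each library left out, with scaling to proximal tubule markers added after the data were seen. Depth of at least 23068023 counts per library gave every member at least 232 counts. The fit was tested on simulated counts drawn independently and without a length or GC trend, so that test does not cover the trend seen here.

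Numbers 1 to 4 recur across groups. Same-numbered libraries deviated together, with a correlation over 0.1, in 4 of 12 pairs (range -0.30 to 0.26), so the numbers were not taken to pair libraries. Between Spns1 KO and FeO the correlations were 0.13, -0.036, 0.26 and 0.23 for numbers 1 to 4. The remaining pair over 0.1 was FeO 2 with WT 2, at 0.19. The paper describes littermates and mouse pairs, so a link between some libraries of different groups remains possible.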

Additional observations from a re-analysis of the deposited data

Results flagged for a closer look

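In 24 groups of 4 or 5 libraries (8 genes in 3 groups), 3 had a library far from the rest of its group by Dixon's test, which flags about 1 group in 20 by chance. Cubn in FeO 1 stood at 77.5 CPM, under the 129 to 139.6 CPM of the other FeO libraries. Amn in Spns1 KO 4 stood at 21.02 CPM, under the 43.8 to 46.2 CPM of the others. Dab2 in WT 4 stood at 417 CPM, above the 295 to 310.5 CPM of the others. FeO 1 also had the lowest summed proximal tubule marker level (2281 CPM), and Spns1 KO 4 had the smallest gap between long and short genes of its group (-0.55 on the log2 scale). Whether these values are linked was not tested.

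For 5 members the change against WT differed between the 2 models, by the test of Spns1 KO against FeO in the joint edgeR fit. The change in Spns1 KO exceeded that in FeO by 1.41 on the log2 scale for Cubn (adjusted p = 0.00369), by 1.01 for Lrp2 (adjusted p = 0.00921), by 1.01 for Amn (adjusted p = 0.0389) and by 0.84 for Lrpap1 (adjusted p = 0.00657). For Gipc1 the difference was -0.75 (adjusted p = 0.0142). Both changes use the same WT libraries, which cancel in this difference. The call for Amn was lost in 5 of 13 fits without 1 library, and the other 4 calls were kept in all 13.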

How the results depend on the processing

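Among single-gene values, 526 of the alternatives kept direction and side of the limits, 22 lost a call, 17 gained one and 35 changed sign. The tally includes the setting without a fold change limit, whose fold changes are by design those of the original fit. It also includes fits that left out a library of a group not compared, so it is no measure of how stable the results are. For Spns1 KO against WT, DESeq2, limma-voom, the scaling alternatives from whole libraries, no filter and the 2-group fit called 5 or 6 members higher. With library totals as the only scaling, 7 pathway genes were called lower, Clcn5 stood at -0.077, and Dab2 lost its call (0.51, edgeR adjusted p = 0.061). With the length and GC trend removed, 0 pathway genes were called lower and Gipc1 stood at -0.062. Scaled to proximal tubule markers, 0 members were called higher and 1 lower, where 76 and 9655 of all 16468 genes were. Of the pathway genes 1 was then called higher and 38 lower. The log2 fold changes under this scaling were -0.28 for Lrp2, -0.018 for Cubn, -0.45 for Dab2, -0.060 for Lrpap1, -1.02 for Clcn5 and -0.68 for Gipc1. Amn (0.65) and Fcgrt (0.077) stayed positive without a call. For FeO against WT, 1 member was called lower by DESeq2, with upper-quartile factors, with library totals and with the replicate block, each time Clcn5 (-0.71, -0.75, -0.81 and -0.91). Dab2, at 0.0023 in the fit of all libraries, stood at -0.021 by limma-voom, -0.024 with upper-quartile factors, -0.084 with library totals, -0.032 with the block, 0.30 with the trend removed and 0.26 with both. There 2 members were called higher in the fit of only the 2 groups and with the trend removed. Removal of the trend left 2 pathway genes called lower and gave 0.53 for Lrp2, 0.38 for Cubn, 0.42 for Amn and -0.034 for Clcn5. Marker scaling gave 18 pathway genes higher and 1 lower, where 1803 and 887 of all 16468 genes were. For Spns1 KO against FeO, the fit of only the 2 groups called 0 members and 4 pathway genes lower. Marker scaling there called 0 members higher and 1 lower, where 67 and 9553 of all 16468 genes were, with 1 pathway gene higher and 56 lower. It gave -0.034 for Lrp2, -0.018 for Amn, -0.47 for Dab2, -0.29 for Lrpap1, -0.45 for Clcn5 and -0.65 for Fcgrt. With the trend removed the ratio of Amn to Cubn changed sign in Spns1 KO (-0.22) and in FeO (-0.017) against WT, and that of Lrpap1 to Lrp2 in Spns1 KO (-0.17) and FeO (-0.40) against WT and between the 2 models (0.23). The cause of these shifts was not tested.

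Between groups the labels link libraries only by a number. The paper describes littermate controls and pairs of mice treated with tamoxifen at the same time, but not which libraries belong together. The replicate block, which takes the numbers as pairs and also drops WT 5, is therefore given here alone. With the block, all-gene calls were 2048 higher and 906 lower in Spns1 KO against WT, 3451 and 3054 in FeO against WT and 891 and 1041 in Spns1 KO against FeO, Clcn5 in Spns1 KO stood at -0.11, and Dab2 there was 0.62 (edgeR adjusted p = 0.0916). With the block and the trend removed, 10 pathway genes were called higher and 0 lower in Spns1 KO, where Gipc1 stood at -0.12 and Fcgrt at 0.58 (edgeR adjusted p = 0.0966). In FeO that fit called 2 members higher and 2 pathway genes lower and gave 0.56 for Lrp2, 0.34 for Cubn, 0.23 for Amn, -0.24 for Clcn5 and -0.0049 for Fcgrt.

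With each library left out in turn, the members called higher numbered 5 to 6 in Spns1 KO, 1 to 3 in FeO and 3 to 6 in Spns1 KO against FeO, and those called lower 0 to 0, 0 to 1 and 1 to 1. Pathway genes called higher numbered 13 to 32, 24 to 29 and 7 to 10, and those called lower 0 (without Spns1 KO 1) to 5 (without Spns1 KO 4), 6 (without FeO 1) to 13 (without FeO 2) and 4 (without FeO 1) to 14. Over the same fits Clcn5 in Spns1 KO lay between -0.090 and 0.32 and Dab2 in FeO between -0.18 and 0.12. The log2 ratio of Cubn to Lrp2 differed by 0.092 to 0.42 in Spns1 KO, -0.19 to -0.0018 in FeO and 0.21 to 0.53 between the models. For Amn to Cubn the ranges were 0.40 to 1.00, 0.79 to 1.19 and -0.64 to -0.033, and for Lrpap1 to Lrp2 0.061 to 0.53, 0.35 to 0.52 and -0.37 to 0.10, the last being positive only without Spns1 KO 4. Depth did not limit the members, since each had at least 232 counts in every library.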
